A study of Mus musculus with 5 samples.

Results

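The genes of the proteasome and of NFE2L1, the transcription factor that drives their expression, were examined in brown adipose tissue (BAT) of cold-exposed mice with and without ATF4 in thermogenic adipocytes. The members were the protein-coding genes whose symbols begin with Psma, Psmb, Psmc, Psmd or Psme followed by a number, together with Nfe2l1; the rule takes genes by name, and the family was picked with earlier results of these data known. There were 44 such genes, 43 for subunits, assembly chaperones and activators and Nfe2l1 itself, of 52022 genes in the tables. For 42 of the 44 there were enough counts for a test, and 41 of those were subunit genes.

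BAT from 3 ATF4 BKO and 2 WT mice was sequenced, with 1 library for each mouse. ATF4 BKO mice were homozygous for a floxed Atf4 allele and carried the Tg(Ucp1-cre)1Evdr transgene, in which the Ucp1 promoter drives Cre recombinase. Recombination was therefore directed at adipocytes that express UCP1, and the vessels, nerves and immune cells of BAT keep Atf4. WT mice were littermates with the floxed allele and no Cre, so both groups carried floxed Atf4 and the effect of the transgene cannot be told apart from that of the deletion. All mice were on a C57Bl/6J background, 10 to 12 weeks old, labelled male, acclimated for 7 days at 30 °C and then kept for 3 days at 4 °C with free access to food.

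The proteasome is a barrel-shaped protease of stacked alpha and beta rings, called the 20S core, capped by a 19S particle that binds ubiquitin-tagged proteins, unfolds them with a ring of ATPases and feeds them into the barrel. Its 3 pairs of active sites lie on the beta subunits encoded by Psmb5, Psmb6 and Psmb7, which cells exposed to interferon replace with those of Psmb8, Psmb9 and Psmb10 to form the immunoproteasome. NFE2L1 (also called NRF1) is inserted in the membrane of the endoplasmic reticulum, extracted from it and degraded by the proteasome. When the proteasome falls short, NFE2L1 escapes degradation, is clipped and moves to the nucleus to raise proteasome genes together. In BAT it is known as the factor that keeps proteasome activity up during cold exposure.

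Total estimated counts were 24698337, 27578833 and 31558111 in ATF4 BKO replicates 1, 2 and 3 and 30996438 and 32452751 in WT replicates 1 and 2. Differences between genotypes were tested with edgeR's quasi-likelihood test over 16450 genes, with Benjamini-Hochberg adjustment over all of them and a threshold of 0.05. Levels of different genes are compared only in TPM (estimated abundance scaled for transcript length and library size), and the levels of 1 gene in different mice also in CPM (counts scaled for library size after TMM normalization). The TPM of a gene sums all its annotated transcripts, noncoding ones included, and ranks between genes are ranks of these sums. A log2 fold change is the difference between ATF4 BKO and WT fitted to the counts, negative when ATF4 BKO mice were lower. In tissue RNA, fewer cells of a type and less RNA per cell cannot be told apart.

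Several libraries stood apart from their labels or from each other. ATF4 BKO replicate 1 held 4598 counts of Xist, the RNA of the inactive X chromosome, where the other mice held at most 7. The same mouse held 34 counts of 4 genes of the Y chromosome (Uty, Kdm5d, Eif2s3y and Ddx3y), where the others held 3284 to 4476, so this library did not match its male label. Skeletal muscle markers, 14 genes of the contractile apparatus, summed to 11.6, 27.3 and 5.94 TPM in ATF4 BKO mice and to 87.9 and 2089 TPM in WT replicates 1 and 2. Their most abundant gene was Acta1, the skeletal actin, at 345 TPM in WT replicate 2, while Tnnt3 and Pvalb were at 0 in ATF4 BKO replicate 3 and Myoz1 was at 0 in ATF4 BKO replicates 1 and 3. All 14 had a lower CPM in every ATF4 BKO mouse, as did 10.6% of all genes tested, and the median of their log2 fold changes was -6.44. At an adjusted p under 0.05 edgeR called 0 of them (0.00608% of all genes tested) and DESeq2 called 7 (0.736% of all genes). At an unadjusted p under 0.05 the counts were 14 with edgeR (5.23% of all genes) and 13 with DESeq2 (5.79%). The names of the samples begin with 1 of 2 prefixes, of unstated meaning, and only WT replicate 2 and ATF4 BKO replicate 3 have the second. The brown adipocyte markers fitted the labelled tissue, with Ucp1 between 8039 and 10072 TPM in the 5 mice.

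Atf4 itself checked the genotype labels. It had 32.6, 52.6 and 23.5 CPM in ATF4 BKO mice and 286 and 226 CPM in WT mice, so the groups were far apart and did not overlap. Its fitted log2 fold change was -2.82 (standard error, SE, 0.34), with an adjusted p of 0.671 from edgeR and of 9.72e-12 from DESeq2, an alternative test on the same counts. The difference in the deleted gene was thus called by DESeq2 and not by edgeR.

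No gene of a proteasome subunit passed the test between ATF4 BKO and WT mice. Of the 41 subunit genes tested, edgeR called 0, where it called 0.00608% of all genes tested, and DESeq2 called 0, where it called 0.736% of all genes. At an unadjusted p under 0.05, 0 subunit genes were reached by either tool, against 5.23% of all genes with edgeR and 5.79% with DESeq2. Log2 fold changes ran from -0.36 for Psmd8 to 0.19 for Psma1, with 24 genes below 0 and 17 above and a median of -0.053, beside a median of 0.0077 and a share below 0 of 48.8% for all genes tested. When counts were scaled by library totals alone, the split around 0 was 37 lower and 4 higher, while the all-gene median moved to -0.099. On log2(TPM + 1) it was 39 lower and 2 higher, with an all-gene median of -0.12. Genes did not move alike on that scale: Psma1 went from 0.19 to -0.0080, and Psmd9 was at 0.17 on both. Set against the median of all genes, 29 subunits lay below it and 12 above by edgeR, 28 below and 13 above with library totals, and 34 below and 7 above on log2(TPM + 1). The split around 0 also moved with each WT mouse. With WT replicate 1 left out, 14 subunits were lower and 27 higher, around a median of 0.061, and without WT replicate 2 the numbers were 34 and 7, around a median of -0.15. Leaving out ATF4 BKO replicate 1, the mouse with Xist, gave 27 lower and 14 higher, around a median of -0.052.

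The intervals show what size of difference these 5 mice allow. For 39 of the 41 subunit genes (95.1%), the 95% interval of the log2 fold change stayed within 1 of 0, which is a halving or a doubling. This held for 59.4% of all genes tested and for 83.6% of the 9165 genes whose mean CPM lay in the range of the subunits. The exceptions were Psmb8 and Psmb9, 2 of the 3 immunoproteasome genes. The fitted value itself was within 0.25 of 0 for 37 subunit genes (90.2%), against 59.8% of all genes and 71.4% of those in the same CPM range. The median standard error was 0.14 for the subunits.

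**Figure D1:**
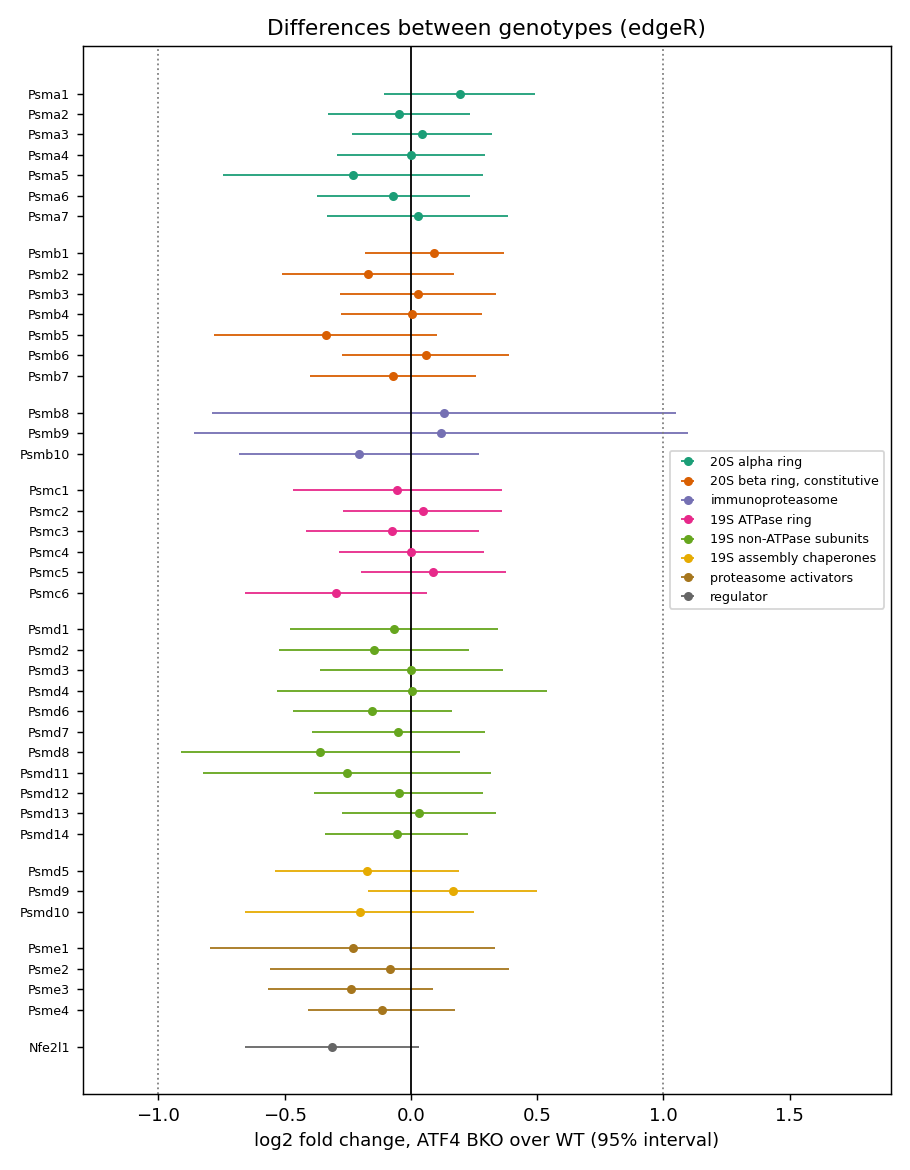
Log2 fold changes of the 42 tested genes (ATF4 BKO over WT, x axis) with 95% intervals from edgeR, 1 row per gene and coloured by subcomplex; dotted lines mark 1 above and below 0. The intervals of all genes cross 0, and those of Psmb8 and Psmb9 are the only ones to pass a dotted line.

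Nfe2l1 (chr11:96817414-96829968, minus strand, GRCm38) was lower in every ATF4 BKO mouse but did not pass the test. It had 177, 170.0 and 169.6 TPM in ATF4 BKO replicates 1, 2 and 3 and 236 and 250.2 TPM in WT replicates 1 and 2. In CPM the values were 465, 413 and 477 against 571 and 551. The groups did not overlap on either scale, and the same was true, in this direction, of 10.6% of all genes in CPM and 24.9% in TPM. Mean levels were 172 ± 4.2 TPM in ATF4 BKO mice (SD, n = 3) and 243 ± 9.75 TPM in WT mice (SD, n = 2). The log2 fold change was -0.31 (SE 0.14), with an adjusted p of 0.911 from edgeR and of 0.848 from DESeq2 (an unadjusted p of 0.0465 by the latter). It kept its sign when each mouse was left out in turn, between -0.35 and -0.24 (-0.33 without ATF4 BKO replicate 1 and -0.35 without WT replicate 2), and was -0.38 among mice with the first name prefix and -0.21 among those with the second.

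The Nfe2l1 gene has 12 transcripts in the annotation, and 5 of them held at least 5% of its TPM in some mouse. Nfe2l1-201, Nfe2l1-203 and Nfe2l1-211 share a coding length of 2223 bases, Nfe2l1-210 has a shorter coding length of 1749 bases, and Nfe2l1-207 is a processed transcript of 582 bases with no annotated coding region. Nfe2l1-203 held 34.9%, 25.0% and 22.7% of the gene's TPM in ATF4 BKO mice, against 29.6% and 30.1% in WT mice. The shorter Nfe2l1-210 held 16.7%, 23.8% and 24.6% in ATF4 BKO mice, against 14.2% and 19.7% in WT mice. For each of the 5 transcripts the shares of the genotypes overlapped, and exact two-sided permutation tests over the mice gave p between 0.4 and 1, all 1 after adjustment over 5, in a design whose smallest possible two-sided p is 0.2. Shares of transcripts that overlap in most of their length are estimates by Kallisto and are less certain than the gene total.

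**Figure D2:**
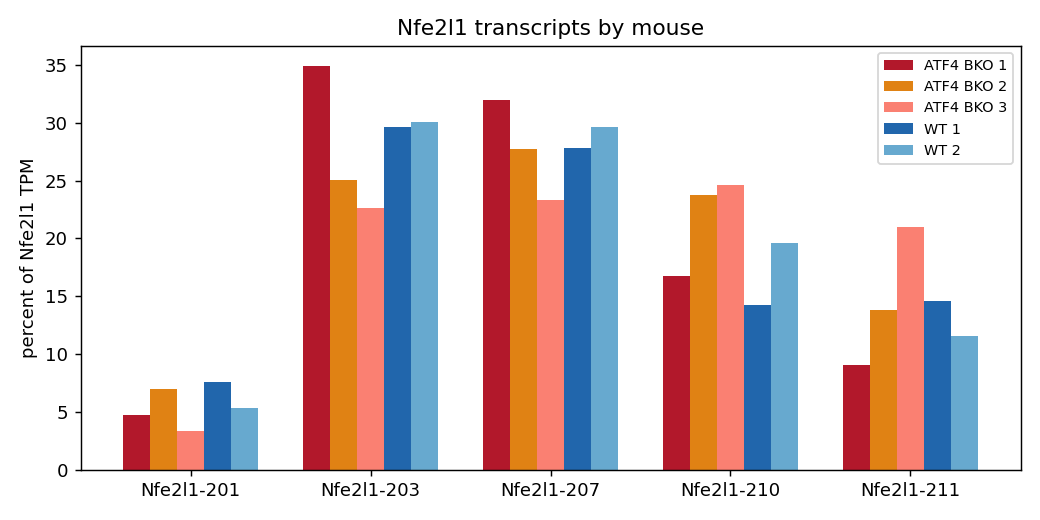
Share of Nfe2l1 TPM (percent, y axis) held by the 5 transcripts with at least 5% in any mouse, with 1 bar per mouse. Bars of the 2 genotypes overlap for every transcript, and Nfe2l1-203 and Nfe2l1-207 are the tallest in most mice.

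Genes for the processing of NFE2L1, which includes its release from the membrane, did not pass the test. Of 11 such genes, 6 had values above 0 and 5 below, around a median log2 fold change of 0.021. Both edgeR and DESeq2 called 0, beside 0.00608% and 0.736% of all genes. At an unadjusted p under 0.05 there were 0, beside 5.23% and 5.79%, and with 11 genes 0 is near those shares. Vcp, the ATPase that pulls NFE2L1 out of the membrane, had 108, 121 and 96.3 TPM in ATF4 BKO mice and 121 and 119.7 TPM in WT mice, which overlap. Ddi2, the protease that clips it, had 8.88, 13.4 and 9.75 TPM against 11.2 and 12.4 TPM. Ngly1, which strips its sugars, had 26.5, 30.8 and 25.9 TPM against 29.6 and 34.0 TPM. Sel1l, part of the ubiquitin ligase that marks NFE2L1 for degradation at the membrane, had a log2 fold change of -0.13 (SE 0.12). In CPM it was the 1 of the 11 that was lower in every ATF4 BKO mouse (9.09%, against 10.6% of all genes), and in TPM there were 3 (27.3%, against 24.9% of all genes).

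NFE2L1 belongs to the cap n collar family, which binds DNA paired with small MAF proteins. Of 9 family members and partners, 4 had values above 0 and 5 below, around a median of -0.074. By edgeR or DESeq2 0 were called, beside 0.00608% and 0.736% of all genes. At an unadjusted p under 0.05 there were 0, beside 5.23% and 5.79%, and with 9 genes 0 is near those shares. Nfe2l2, which encodes NRF2 and was the most abundant of the 9, had 43.8, 42.0 and 42.6 TPM in ATF4 BKO mice and 52.9 and 49.6 TPM in WT mice. Its TPM did not overlap between genotypes and its CPM did, with a log2 fold change of -0.074 (SE 0.13). Nfe2l3, the gene of the related NRF3, stood below 1 TPM in all 5 mice. Keap1, which holds NRF2 in the cytosol, had a log2 fold change of 0.17 (SE 0.14).

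Dimers of the family with small MAF proteins bind the antioxidant response element, whose core is written TGACNNNGC. RefSeq promoters, 250 bases before to 50 bases after the start of transcription in GRCm38.p6, were found for 37 of the 44 members. On either strand, the core occurred in 6 of these 37 (16.2%) and in 14.0% of 27025 genes with a promoter. The 6 were Psmb5, Psmb6, Psmc6, Psmd12, Psmd9 and Psme4. None passed the test, and their log2 fold changes were -0.34, 0.058, -0.30, -0.048, 0.17 and -0.12 in that order. Short windows around the core are shown for the first 3 and for Psmd9, the genes described below whose core lies wholly before the start of transcription. All are written 5′ to 3′ on the strand of the gene with the core in capitals, and in Psmc6 the core lies on the opposite strand, so its letters appear reversed and complemented. They lie at chr14:54618016-54618060 (minus strand), chr11:70525330-70525356, chr14:45329579-45329623 and chr5:123228141-123228185 (plus strand), in the order listed:
Psmb5: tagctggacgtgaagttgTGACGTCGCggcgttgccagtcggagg
Psmb6: gaggcggactaaagagagTGACGGAGC
Psmc6: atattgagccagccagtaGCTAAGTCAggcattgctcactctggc
Psmd9: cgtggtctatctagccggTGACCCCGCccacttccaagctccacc

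The core of the element bound by ATF4 with C/EBP partners, TGATGNAA, was found on either strand in the promoter of 1 member, Psmd13 (2.70%), and in 4.51% of genes. Psmd13, a structural subunit of the 19S lid, had 58.0, 66.6 and 58.9 TPM in ATF4 BKO mice and 69.4 and 60.8 TPM in WT mice, with a log2 fold change of 0.032 (SE 0.12). Its window lies at chr7:140882144-140882172 on the plus strand, with the core again on the opposite strand and in capitals:
Psmd13: gatTTGCATCAcacctagtcctcgccaaa

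The 7 alpha subunits, which form the outer rings and the gate of the barrel, had a median log2 fold change of 0.0006, with 4 above 0 and 3 below. Psma6 was the most abundant of them in all 5 mice, at 193, 228 and 190.2 TPM in ATF4 BKO mice and 261 and 237 TPM in WT mice. Its TPM did not overlap between genotypes and its CPM did, and its log2 fold change was -0.069 (SE 0.12). Psma1 had the highest log2 fold change of all subunit genes, 0.19 (SE 0.12), from 115, 107 and 109 CPM in ATF4 BKO mice and 90.7 and 102 CPM in WT mice. These CPM did not overlap, but in TPM the order was different, 129, 139 and 125 against 122 and 142, and the log2 fold change on log2(TPM + 1) was -0.0080. Psma5 had the lowest value of the ring, -0.23 (SE 0.21), with 40.5, 57.9 and 39.1 TPM in ATF4 BKO mice and 69.3 and 50.4 TPM in WT mice. Without WT replicate 1 it was 0.068. Of the 31-base words in its transcripts, 61.0% also occur in other genes, mainly the processed pseudogene Gm8394, to which 0 counts were assigned in every mouse.

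The 7 constitutive beta subunits had a median log2 fold change of 0.0036, with 4 above 0 and 3 below. Psmb5, whose product is the chymotrypsin-like active site and the usual target of proteasome inhibitors, had the lowest value. It had 171, 219.9 and 170.2 TPM in ATF4 BKO mice and 304 and 226 TPM in WT mice. Every ATF4 BKO mouse lay below both WT mice in TPM, but ATF4 BKO replicate 2 was close to WT replicate 2, and in CPM (115, 129 and 110.2 against 174 and 124) the genotypes overlapped. The log2 fold change was -0.34 (SE 0.18, adjusted p 0.911 by edgeR). Without WT replicate 1, the high mouse, it was -0.060, and without WT replicate 2 it was -0.58. Of the 31-base words of Psmb5, 71.7% also occur in other genes, mainly the pseudogene Gm3375, which was given at most 1 count in any mouse.

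The genes of the other active sites overlapped between genotypes. Psmb6, the caspase-like subunit, had 134, 179 and 140.1 TPM in ATF4 BKO mice and 168 and 159 TPM in WT mice, with a log2 fold change of 0.058 (SE 0.14). Psmb7, the trypsin-like subunit, had 158, 193 and 163 TPM against 216 and 190.0 TPM, with a log2 fold change of -0.070 (SE 0.13). In both genes ATF4 BKO replicate 2 lay between or above the WT mice. Among the subunits without an active site, Psmb4 had the highest summed TPM of the beta subunits in 4 of the 5 mice. It had 230.0, 239 and 224 TPM in ATF4 BKO mice and 236 and 270.3 TPM in WT mice, and Psmb5 was above it in WT replicate 1. Most of that sum was on retained-intron transcripts. The protein-coding Psmb4-201 had 54.1, 64.2 and 54.2 TPM against 67.8 and 63.1 TPM. It lay below the coding Psmb5-201 in every mouse (166.5 to 299.6 TPM), so the rank does not hold for coding transcripts alone. Psmb4 had a log2 fold change of 0.0036 (SE 0.11). By the same sums over all transcripts, Psmb1 was the least abundant in all 5 mice, at 61.3 to 74.2 TPM. It was higher in every ATF4 BKO mouse in CPM (79.7, 83.8 and 76.6 against 75.5 and 74.4), though not in TPM, with a log2 fold change of 0.093 (SE 0.11). Psmb2 had 106, 142 and 110.6 TPM against 159 and 143 TPM, with a log2 fold change of -0.17 (SE 0.14). That value was -0.036 without WT replicate 1 and -0.30 without WT replicate 2. Together the 7 genes summed to 1049, 1256 and 1065 TPM in ATF4 BKO mice and to 1383 and 1265 TPM in WT mice. These sums did not overlap, with ATF4 BKO replicate 2 just below WT replicate 2.

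**Figure D3:**
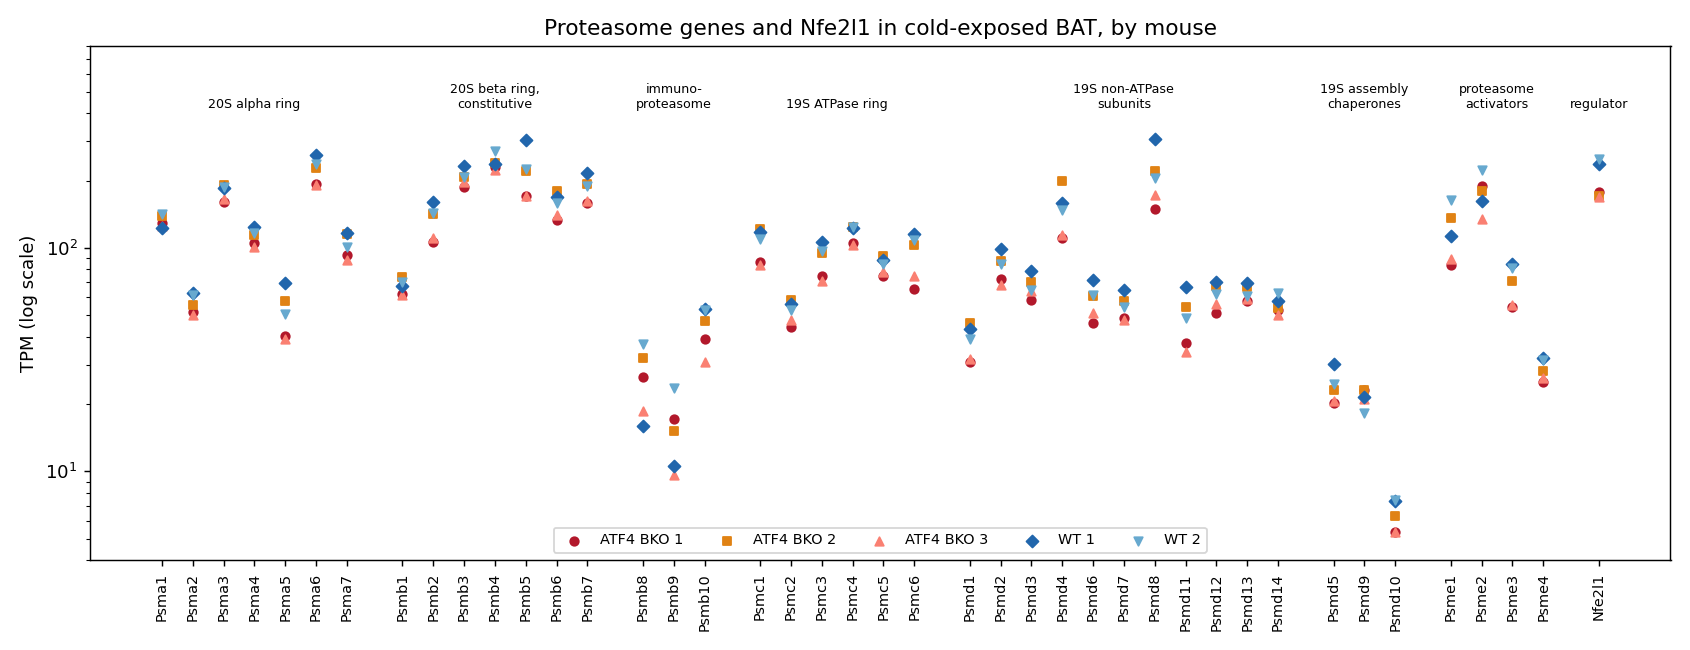
TPM of the 42 tested genes (y axis, log scale) with 1 point per mouse, grouped by subcomplex. In most columns ATF4 BKO replicate 2 sits with the WT mice above the other ATF4 BKO mice, and the widest spread relative to level is in Psmb8 and Psmb9.

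None of the immunoproteasome genes passed the test, and Psmb8 and Psmb9 varied widely within each genotype. Psmb8 (chr17:34197721-34201454) had 26.3, 32.1 and 18.7 TPM in ATF4 BKO mice and 16.0 and 37.0 TPM in WT mice. Psmb9 (chr17:34181987-34187764), its neighbour in the MHC region, had 17.1, 15.2 and 9.62 TPM against 10.5 and 23.6 TPM. In both genes the WT mice were the extremes or close to them, and all ATF4 BKO values but 1 lay between them. Their log2 fold changes were 0.13 (SE 0.38) and 0.12 (SE 0.40), and they turned with the choice of WT mouse. Without WT replicate 1 they were -0.32 and -0.34, and without WT replicate 2 they were 0.80 and 0.81. Psmb10 (chr8:105935735-105938444), the most abundant of the 3 in every mouse by TPM summed over all transcripts, had 39.2, 47.2 and 30.8 TPM against 53.2 and 52.9 TPM. Its coding transcript Psmb10-201 had 12.8, 14.7 and 8.96 TPM against 13.1 and 15.2 TPM, which overlap. In WT replicate 2 the coding Psmb8-203 stood above it, at 17.0 TPM. The summed TPM of Psmb10 was lower in every ATF4 BKO mouse but its CPM was not, with a log2 fold change of -0.20 (SE 0.19). That value was -0.053 without ATF4 BKO replicate 3 and -0.30 without ATF4 BKO replicate 2.

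The balance of the 2 forms was read as the share of the TPM of the 6 catalytic genes, over all transcripts, that Psmb8, Psmb9 and Psmb10 held. Noncoding transcripts weigh unequally in it. The coding Psmb10-201 held 24.6% to 32.7% of Psmb10 TPM, and the retained-intron Psmb8-205 held 36.1% to 46.9% of Psmb8 TPM. The coding Psmb5-201 held 97.9% to 99.0% of Psmb5 TPM. The share and the ratios below were not computed for coding transcripts alone. The share serves to compare mice. The immunoproteasome share was 15.1%, 13.7% and 11.1% in ATF4 BKO mice, against 10.4% and 16.5% in WT mice, or means of 13.3% ± 2.05 (SD, n = 3) and 13.4% ± 4.29 (SD, n = 2). The WT mice lay on either side of all ATF4 BKO mice, and the exact two-sided permutation p was 1. Psmb8 as a percentage of Psmb5, the subunit it replaces, was 15.4%, 14.6% and 11.0% in ATF4 BKO mice, against 5.26% and 16.3% in WT mice. Psmb9 as a percentage of Psmb6 was 12.8%, 8.45% and 6.87% against 6.28% and 14.8%, and Psmb10 as a percentage of Psmb7 was 24.8%, 24.4% and 18.9% against 24.7% and 27.8%. Exact permutation p-values for these ratios were 0.8, 1 and 0.4, and 1 after adjustment over the 6 measures of this kind.

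Genes of immune cells and of the interferon response varied across the same mice. Leukocyte markers, 14 genes, summed to 814, 1602 and 594 TPM in ATF4 BKO mice and to 212 and 1450.0 TPM in WT mice. All 14 had log2 fold changes above 0, where 48.8% of all genes tested lay below 0, and the median was 0.44. WT replicate 1 had the lowest sum. The median difference was 1.75 among mice with the first name prefix, which include WT replicate 1, and -0.51 among those with the second. The part of that mouse in the direction was not tested. By edgeR and by DESeq2, 0 were called (0.00608% and 0.736% of all genes) and 0 had an unadjusted p under 0.05 (5.23% and 5.79%). The same held for the lists of MHC class I and interferon genes below. The most abundant leukocyte marker was Lyz2, the lysozyme of macrophages, at 493, 885 and 307 TPM against 97.0 and 842 TPM, while Cd3e, of T cells, stood below 1 TPM in all 5 mice and none of the 14 was at 0. The 10 genes of MHC class I antigen processing summed to 1642, 1969 and 1438 TPM in ATF4 BKO mice and to 1384 and 2304 TPM in WT mice, around a median log2 fold change of 0.055 with 0 called. The order of the 5 mice by this sum was the order by the TPM of Psmb8, but not by that of Psmb9 or Psmb10. B2m, the shared light chain of MHC class I, had 471, 567 and 399 TPM against 310.3 and 684 TPM. The 12 interferon response genes summed to 192, 208 and 117 TPM against 142 and 317 TPM, with 9 below 0, a median of -0.33 and 0 called. The median difference among mice with the first name prefix was 0.55 for these genes and 0.38 for those of MHC class I, and among mice with the second it was -1.28 and -0.48. Isg15, a ubiquitin-like protein made on interferon exposure, had 24.3, 17.5 and 5.51 TPM against 18.7 and 41.2 TPM. The part of immune cell content in the immunoproteasome values was not tested.

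**Figure D4:**
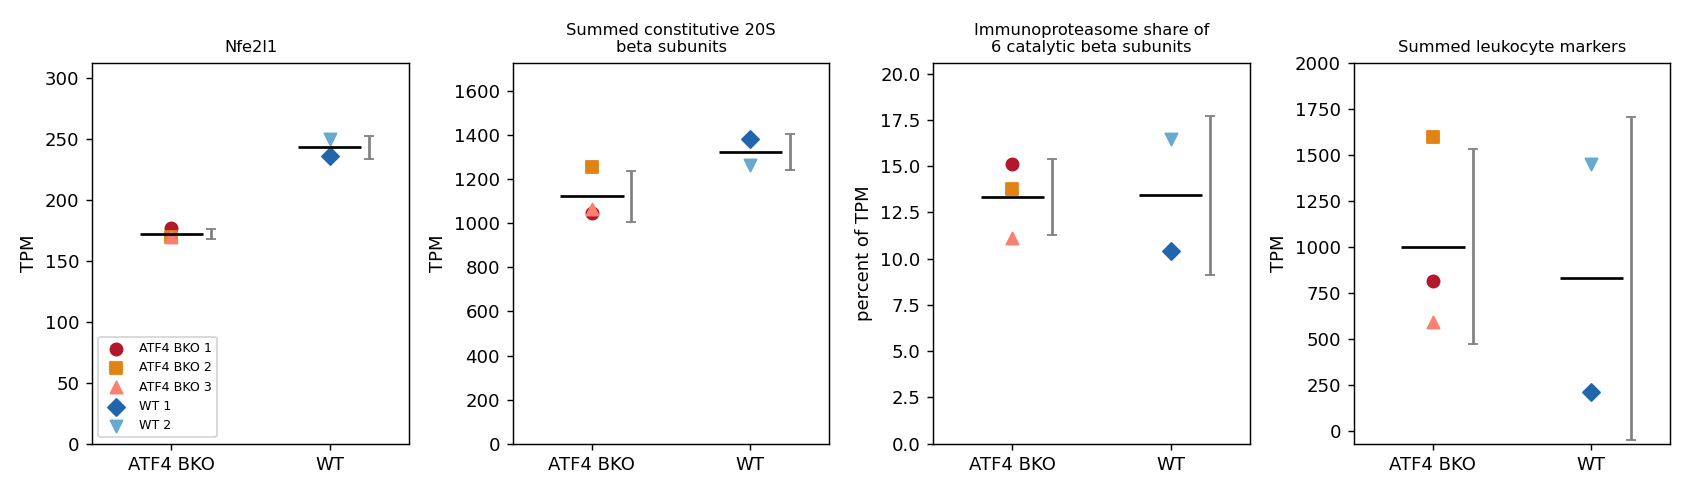
Values by mouse and genotype for Nfe2l1 TPM, the summed TPM of the 7 constitutive beta subunits, the immunoproteasome share of the 6 catalytic genes (percent) and the summed TPM of 14 leukocyte markers; black lines are means and grey bars span 1 SD either side. Nfe2l1 separates the genotypes, whereas the WT mice lie on either side of all ATF4 BKO mice in the immunoproteasome share, and WT replicate 1 is lowest in it and in the leukocyte markers.

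The 6 ATPases of the 19S base, which unfold substrates, had a median log2 fold change of -0.025, with 3 above 0 and 3 below. Psmc6 (chr14:45329788-45349705) had the smallest p of the 41 subunit genes. It had 65.7, 103 and 75.0 TPM in ATF4 BKO mice and 116 and 108 TPM in WT mice, with ATF4 BKO replicate 2 close below the WT mice. In CPM the values were 66.8, 80.69 and 69.0 against 96.6 and 80.69, a tie between ATF4 BKO replicate 2 and WT replicate 2 to that precision. Its log2 fold change was -0.30 (SE 0.15), a level 0.814 times that of WT mice, with an adjusted p of 0.911 from edgeR. It was -0.15 without WT replicate 1 and -0.44 without WT replicate 2. By TPM summed over all transcripts, Psmc4 was the most abundant ATPase in every mouse, at 105, 124 and 103 TPM against 123 and 123 TPM. Psmc2 was the least by these sums, at 44.4 to 58.5 TPM, but the protein-coding Psmc6-201 alone stood lower, at 22.3 to 36.3 TPM. Psmc4 had a log2 fold change of 0.0025 (SE 0.12), and Psmc5 had the highest of the ring, 0.089 (SE 0.12). The ring holds 1 copy of each ATPase, and the TPM of the most abundant was 2.12 to 2.36 times that of the least abundant in the 5 mice.

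The 11 non-ATPase subunits, which bind ubiquitin, remove it and hold the 19S particle together, had a median log2 fold change of -0.056, with 8 below 0 and 3 above. Psmd8, a lid subunit, was the most abundant in every mouse and had the lowest log2 fold change of all subunits. It had 149.7, 221 and 172 TPM in ATF4 BKO mice and 306 and 206 TPM in WT mice, so that the genotypes overlapped and WT replicate 1 stood alone above. The fitted value of -0.36 (SE 0.23) was 0.020 without WT replicate 1. Psmd1, the large scaffold subunit, was the least abundant in every mouse, at 30.7 to 45.9 TPM. Psmd6 had 46.3, 60.8 and 51.3 TPM against 71.8 and 61.6 TPM, with a log2 fold change of -0.15 (SE 0.13), and was lower in every ATF4 BKO mouse in TPM but not in CPM. Psmd4, a receptor for ubiquitin chains, and Psmd14, the deubiquitinase of the lid, had log2 fold changes of 0.0050 and -0.056 (SEs 0.22 and 0.12).

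The 3 genes of 19S assembly chaperones, which guide the ATPases into their ring and leave before the particle is complete, were the least abundant tested group. Psmd10, which encodes the oncoprotein gankyrin, had 5.35, 6.33 and 5.37 TPM in ATF4 BKO mice and 7.36 and 7.45 TPM in WT mice. It was lower in every ATF4 BKO mouse on either scale, with a log2 fold change of -0.20 (SE 0.19). The gene lies on chromosome X, and without ATF4 BKO replicate 1, the mouse with Xist, the value was -0.20. Psmd5 had 20.3, 23.0 and 20.5 TPM against 30.1 and 24.6 TPM, with a log2 fold change of -0.17 (SE 0.15). That value was -0.0046 without WT replicate 1 and -0.33 without WT replicate 2. Psmd9 went the other way in CPM, 22.5, 20.9 and 22.4 against 20.7 and 18.4, higher in every ATF4 BKO mouse but by a narrow margin, with a log2 fold change of 0.17 (SE 0.14). In TPM its genotypes overlapped (23.1, 23.1 and 21.0 against 21.6 and 18.2).

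The 4 activator genes were all below 0, with a median log2 fold change of -0.17. Psme3 (chr11:101316213-101323537), which encodes the activator of the nucleus, was lower in every ATF4 BKO mouse on either scale. It had 54.6, 71.2 and 55.3 TPM in ATF4 BKO mice and 84.5 and 81.5 TPM in WT mice, with a log2 fold change of -0.24 (SE 0.13, adjusted p 0.915 by edgeR). Without WT replicate 1 the value was -0.099, and without WT replicate 2 it was -0.37. Psme4, which encodes a large single-chain activator, was likewise lower in every ATF4 BKO mouse, with 142, 136 and 148 CPM against 158 and 149 CPM and a log2 fold change of -0.12 (SE 0.12). Psme1 and Psme2, the interferon-inducible pair that caps immunoproteasomes, overlapped between genotypes. Psme2 had 189.9, 179 and 134.9 TPM in ATF4 BKO mice and 162 and 223 TPM in WT mice, for a log2 fold change of -0.084 (SE 0.19). Psme1 had 84.0, 136 and 89.0 TPM against 113 and 164 TPM. Of the 31-base words of Psme2, 33.5% occur in other genes, mainly Psme2b, which held 3 to 45 counts where Psme2 held 1917 to 3136.

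The subunit genes whose groups did not overlap were counted beside all genes. In CPM, 3 of 41 subunit genes (7.32%) were lower in every ATF4 BKO mouse, Psme3, Psme4 and Psmd10, against 10.6% of all genes tested. As many (7.32%) were higher in every ATF4 BKO mouse, Psma1, Psmb1 and Psmd9, against 8.95% of all genes. In TPM, 14 were lower in every ATF4 BKO mouse (34.1%), against 24.9% of all genes, and 0 were higher, against 3.02%. The tested subunits together held 0.347%, 0.430% and 0.344% of all TPM in ATF4 BKO mice, against 0.455% and 0.429% in WT mice. ATF4 BKO replicate 2 lay between the WT mice here, and the exact two-sided permutation p was 0.4. The tissue-specific genes Psma8, of the testis, and Psmb11, of the thymus, held 1 to 8 counts in every mouse and were not tested.

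The subunit genes also kept an order among the mice within each genotype. In TPM, ATF4 BKO replicate 2 was the highest ATF4 BKO mouse for 39 of 41 subunit genes (95.1%), as it was for 58.3% of all genes tested. In CPM it was highest for 30 of 41 (73.2%), against 43.5% of all genes. WT replicate 1 lay above WT replicate 2 in CPM for 35 of 41 (85.4%), against 49.6% of all genes, but for 0 of the 3 immunoproteasome genes. In TPM it did so for 30 of 41 (73.2%), against 42.4% of all genes, and for 1 of the 3 immunoproteasome genes. The mice differed less than for other genes: the median coefficient of variation over all 5 mice was 8.88% in CPM for the subunits, 18.8% for all genes and 13.4% for genes in the same CPM range. In TPM the same medians were larger, at 13.5%, 22.3% and 17.7%. These counts run over genes of the same 5 libraries, which are not independent, and were not tested.

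Genes that work with the proteasome were described from lists of the same pathway. Of 8 other assembly factors, 7 were below 0 and 1 above, around a median log2 fold change of -0.17, and edgeR and DESeq2 called 0, with 1 (Ubqln1) at an unadjusted p under 0.05 by each, beside 5.23% and 5.79% of all genes. Pomp, which matures the 20S core and was the most abundant of them, had a log2 fold change of 0.0015 (SE 0.12). Ubqln1, a shuttle that also acts in assembly, had 56.3, 63.6 and 54.2 TPM in ATF4 BKO mice and 90.0 and 77.8 TPM in WT mice. It was lower in every ATF4 BKO mouse, with a log2 fold change of -0.34 (SE 0.13, adjusted p 0.911 by edgeR). Psmg4, a chaperone of the alpha ring, was lower in every ATF4 BKO mouse as well, at 10.1, 10.5 and 9.64 TPM against 18.0 and 14.0 TPM, with a log2 fold change of -0.48 (SE 0.25). These 2 of 8 (25%) stand beside 10.6% of all genes in CPM, and in TPM 4 of 8 (50%) were lower in every ATF4 BKO mouse, beside 24.9%. Of 12 further subunits and cofactors of the 26S particle, 10 were below 0 and 2 above, around a median of -0.13, with 0 called and 0 at an unadjusted p under 0.05 by either tool. In CPM 2 of these 12 (16.7%), Ube3c and Ubqln4, were lower in every ATF4 BKO mouse, against 10.6% of all genes, and in TPM 3 (25%), against 24.9%. Ube3c and Ubqln4 had log2 fold changes of -0.16 and -0.18 (SEs 0.12 and 0.12), while Adrm1, a ubiquitin receptor and the most abundant, had 0.075 (SE 0.17).

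Of 11 ubiquitin-activating and abundant conjugating enzymes, 10 were below 0 and 1 above, around a median log2 fold change of -0.17, with 0 called and 1 (Ube2s) at an unadjusted p under 0.05 by edgeR (5.23% of all genes) and by DESeq2 (5.79% of all genes). Ube2s, which extends ubiquitin chains for the anaphase-promoting complex, had 42.2, 48.1 and 42.6 TPM in ATF4 BKO mice and 67.8 and 63.7 TPM in WT mice. The gap between the groups was wider than the spread within either, and the log2 fold change was -0.42 (SE 0.13), with an adjusted p of 0.911 from edgeR. Uba1, the main ubiquitin-activating enzyme, Uba6 and Ube2d3 were also lower in every ATF4 BKO mouse in CPM, with log2 fold changes of -0.21, -0.23 and -0.20 (SEs 0.14, 0.18 and 0.13). That makes 4 of 11 (36.4%), beside 10.6% of all genes, and in TPM 7 of 11 (63.6%) were, beside 24.9%. Of the 4 ubiquitin genes 2 lay above 0 and 2 below, around a median of -0.0087, with 0 called and 0 at an unadjusted p under 0.05 by either tool.

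**Figure D5:**
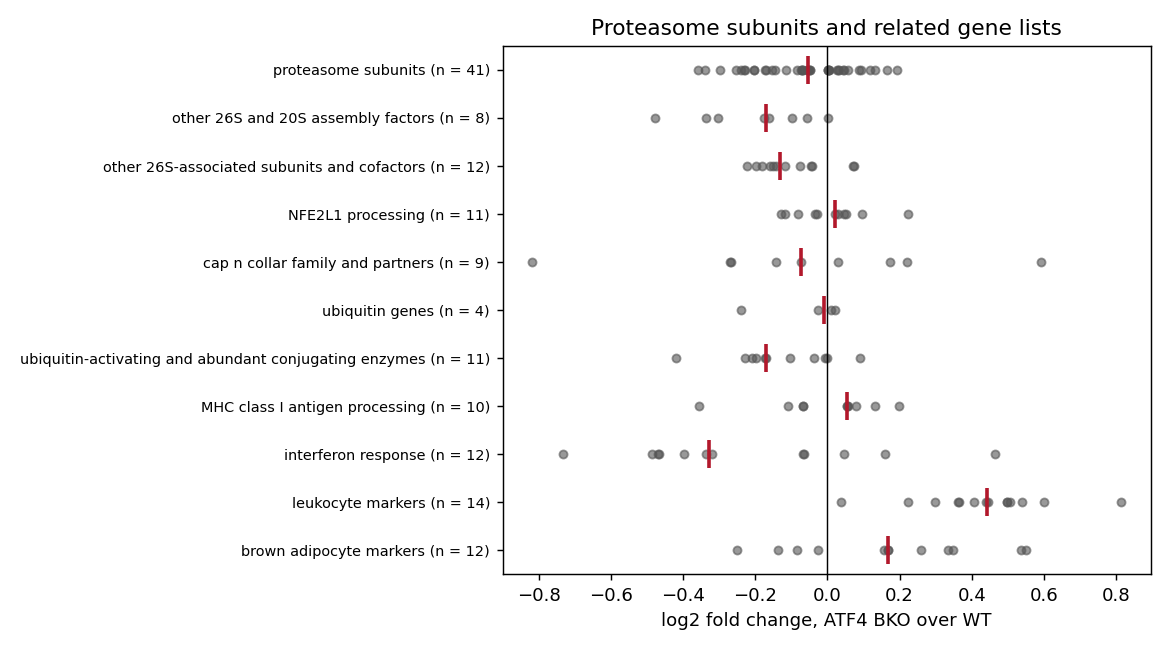
Log2 fold changes (x axis, ATF4 BKO over WT, edgeR) of the 41 proteasome subunits and of the other gene lists, 1 grey point per gene with the median of each list as a red bar; skeletal muscle markers, with a median of -6.44, and the sex-linked genes are not drawn. Subunit genes lie within 0.36 of 0, a narrower range than the interferon response genes and leukocyte markers show.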

How the data were processed

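The authors prepared stranded mRNA libraries, counted reads per transcript by pseudo-alignment (Kallisto 0.45.0 and mm10, as the submitters' processing notes name them) and deposited 1 table per mouse with estimated counts, not normalized between mice, and TPM, which sum to 1 common total per mouse. The transcript annotation used is not given in the sources used here. Estimated counts were added up by gene (GENCODE M21, GRCm38) and then rounded, and TPM were added up likewise. Of 141450 transcripts, 138191 matched, and the 3259 others, with 1.16% to 1.29% of counts, were left out. No 2 libraries agreed within sampling noise.

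Genotypes were compared over all 5 mice with edgeR 4.0.16 in R 4.3.3 (TMM, at least 10 counts in at least 2 mice, quasi-likelihood test, genotype as the sole term). DESeq2 1.42.0, limma 3.58.1 on log2(TPM + 1) and log2(TPM + 0.1), other scalings, no filter, leaving out each mouse and blocks were alternatives. The dispersion had 3 residual and 3.06 prior degrees of freedom. Single values per mouse were compared with an exact two-sided permutation test over the 10 splits of the mice. The edgeR, DESeq2 and limma fits on all 5 mice were tested on simulated data. Intervals are at 95%. Reads shared with other genes were gauged by 31-base words.

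Members and gene lists were chosen with earlier results of these data known. Named were Nfe2l1, Psmb5 to Psmb10, the extremes and most abundant gene of each subcomplex, up to 10 members with the smallest p, members without a test, the first few of each list by p and its most abundant gene. Outside this rule, Psmc2, Psmd1, Psmd4, Psmd12, Psmd14, Psme1, Psme4, Ddi2, Ngly1, Cd3e, Ucp1, Tnnt3, Pvalb and Myoz1 were named after their values were seen. Some items of the lists are not reported here.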

Additional observations from a re-analysis of the deposited data

How the results depend on the processing

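Under the 13 alternatives, 0 proteasome subunits were called, and Nfe2l1 kept its sign in all of them, from -0.50 to -0.24, with adjusted p-values from 0.550 to 1.00. The number of genes called in all, 1 by edgeR, was 121 with DESeq2, 8 without the count filter, 0 on log2(TPM + 1), 2 on log2(TPM + 0.1), 0 with the replicate number as a block, 0 with the name prefix as a block, and 0 to 23 when 1 mouse was left out, the highest without WT replicate 1. The median log2 fold change of the subunits was -0.15 with library totals alone, -0.21 on log2(TPM + 1), -0.22 on log2(TPM + 0.1), beside all-gene medians of -0.099, -0.12 and -0.17, and ran from -0.15 to 0.061 without 1 mouse. The median of the immunoproteasome genes ran from -0.32 to 0.80 without 1 mouse (without WT replicate 1 and WT replicate 2), and the difference in the immunoproteasome share from -3.14 to 2.93 percentage points; with CPM in place of TPM that difference was 0.669.

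Some of the members chosen by the naming rule turned their sign without passing the test either way. With library totals alone, which lowered the all-gene median from 0.0077 to -0.099 and these members about as much, the log2 fold changes were -0.011 for Psmb1, -0.10 for Psmb4, -0.043 for Psmb6, -0.10 for Psmc4, -0.015 for Psmc5 and -0.073 for Psmd13. For the other alternatives the cause was not tested. On log2(TPM + 1) they were -0.0080 for Psma1, -0.072 for Psmb1, -0.13 for Psmb4, -0.12 for Psmb6, -0.21 for Psmb9, -0.16 for Psmc4, -0.090 for Psmc5 and -0.089 for Psmd13. On log2(TPM + 0.1) they were -0.0081 for Psma1, -0.073 for Psmb1, -0.13 for Psmb4, -0.13 for Psmb6, -0.22 for Psmb9, -0.16 for Psmc4, -0.091 for Psmc5 and -0.090 for Psmd13. Without the filter Psmb4 was at -9.0e-05 and Psmc4 at -0.0010, and with the name prefix as a block they were at -0.012 and -0.012. Without 1 mouse, signs turned within -0.49 to 0.068 for Psma5, -0.15 to 0.017 for Psma6, -0.046 to 0.052 for Psmb4, -0.030 to 0.15 for Psmb6, -0.20 to 0.072 for Psmb7, -0.32 to 0.80 for Psmb8, -0.34 to 0.81 for Psmb9, -0.060 to 0.064 for Psmc4, -0.67 to 0.020 for Psmd8, -0.097 to 0.17 for Psmd13 and -0.23 to 0.080 for Psme2. Of the members named outside the rule, some also turned without 1 mouse. Their ranges were -0.046 to 0.14 for Psmc2, -0.19 to 0.061 for Psmd1, -0.21 to 0.11 for Psmd4, -0.18 to 0.095 for Psmd12 and -0.084 to 0.0030 for Psmd14.

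The replicate numbers were shared only as numbers: the deviations of same-numbered mice from their group means correlated at 0.047 and 0.20 over the 2 pairs. With the replicate block, the subunit median was -0.0074, Psme2 was at 0.042 and no member was called. With 2 WT mice, the WT spread rests on 1 pair. Of the tested members Psmd10 had the fewest counts on average, 143 to 242 per mouse.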

Other observations

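Brown adipocyte markers were not called between genotypes. Of 12 markers, 8 had log2 fold changes above 0 and 4 below, with a median of 0.17, and 0 were called and 1 (Adipoq) had an unadjusted p under 0.05 by edgeR and by DESeq2, beside 5.23% and 5.79% of all genes tested. Adipoq, which encodes the hormone adiponectin, had 341, 287 and 379 CPM in ATF4 BKO mice and 203 and 256 CPM in WT mice, with a log2 fold change of 0.55 (SE 0.19) and an adjusted p of 0.911 from edgeR. Fabp4, a fatty acid carrier and the most abundant marker, had a log2 fold change of 0.26 (SE 0.21). These 2 of 12 (16.7%) were higher in every ATF4 BKO mouse in CPM, against 8.95% of all genes, and in TPM 1 of 12 was higher (8.33%, against 3.02%) and 2 were lower (16.7%, against 24.9%) in every ATF4 BKO mouse.

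Psme2 as a percentage of its partner Psme1 was 226% in ATF4 BKO replicate 1 and no more than 152% elsewhere, with a lowest value of 132%, an exact two-sided permutation p of 0.6 between genotypes. Psmd9 was the most abundant 19S assembly chaperone gene in TPM in all 3 ATF4 BKO mice and Psmd5 in both WT mice, although in ATF4 BKO replicate 2 they stood at 23.1 and 23.0 TPM. This pair was chosen after its values were seen, and the change of order was not tested.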
